A study of Mus musculus with 8 samples.

Results

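Described here are stretches of chromatin where acetylated histone H4 peaks reached a set cover only in macrophages given 25-hydroxycholesterol before a bacterial lipopeptide. Below that cover, peaks of other libraries may be present in them. Chromosomes 1 to 19 were divided into bins of 1 kb, and a bin was called in a library where the deposited peaks of that library covered at least 500 bp of it. The bins kept were those called in both libraries of cells given 25-hydroxycholesterol (25HC) and then PAM3CSK4 (PAM3) and in none of the other 6 libraries. There were 3555 such bins among the 115134 bins called in at least 1 library, which is 3.09% of them. They are called member bins, and adjacent ones form a run. They were chosen by peak cover in all 8 libraries, so every contrast of 25HC then PAM3 with another group inside them is a description with no test.

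Acetyl groups on the tail of histone H4 loosen its hold on DNA, are read by bromodomain proteins, and mark active promoters and enhancers. PAM3 is a synthetic lipopeptide that Toll-like receptor 2 senses together with Toll-like receptor 1, and its signal reaches enhancers through NF-κB and AP-1 factors. 25HC is a hydroxylated cholesterol that macrophages produce with the enzyme Ch25h, and it acts on the sterol sensors LXR and the SREBP pathway. In stimulated macrophages, acetylation is gained at enhancers that were marked beforehand and at enhancers that were not.

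Bone-marrow-derived macrophages of C57BL/6 mice gave 8 libraries of DNA pulled down with an antibody to acetylated H4. The 4 groups were 25HC then PAM3, PAM3 without 25HC, 25HC without PAM3, and untreated cells, with mouse A and mouse B each giving 1 library to every group. The label for stimulation time reads 18 with PAM3 and 0 without it and carries no unit, so PAM3 and that time cannot be told apart. Because 2 mice gave all libraries, every spread below is that between 2 animals, and neither the dose nor the length of the 25HC treatment is stated in the labels.

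The lists held 48446 to 54552 peaks and covered 56.6 Mb (PAM3, mouse A) to 72.4 Mb (PAM3, mouse B), so the PAM3 libraries are the extremes of covered length. All 8 macrophage marker genes had a peak in each library. Of other cell types, 2 to 4 of 6 neutrophil markers, 2 to 3 of 6 lymphocyte markers, 4 to 5 of 5 dendritic cell markers and 2 to 4 of 6 fibroblast and endothelial markers had one. Summed neutrophil marker cover was 9231 and 9973 bp in 25HC then PAM3, 8300 and 9255 bp in PAM3, 7803 and 8102 bp in 25HC, and 11012 and 8178 bp in untreated cells. Summed dendritic cell marker cover was 20048 and 16546 bp in 25HC then PAM3, 17971 and 19604 bp in PAM3, 22145 and 25906 bp in 25HC, and 27855 and 30022 bp in untreated cells. It was lower in all 4 PAM3 libraries than in the 4 without PAM3, with no overlap, and its part in the results below was not tested.

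The sequences below are those of the regulators whose surroundings hold the member bins described later, from RefSeq (GRCm38.p6) and chosen after the values were seen. miR-155 and miR-146a are microRNAs that NF-κB induces in macrophages, where the first favours inflammation and the second restrains Toll-like receptor signalling. Capitals mark the seed, bases 2 to 8, with which a microRNA pairs to its targets, and the 2 mature strands shown do not share one.
miR-155-5p: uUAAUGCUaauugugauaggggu
miR-146a-5p: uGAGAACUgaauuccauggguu

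Member bins held few promoters. The promoters printed here belong to Nfkbie, which encodes the inhibitor IκB-ε of NF-κB, to Pde4b, a phosphodiesterase that degrades cyclic AMP in inflammatory cells, and to Serpinb9b, a serine protease inhibitor. Each stretch is the 250 bases before an annotated start on the plus strand, at chr17:45555450-45555699 for Nfkbie, chr4:102587308-102587557 for Pde4b and chr13:33027164-33027413 for Serpinb9b. Capitals mark matches on either strand to the AP-1 site TGAGTCA and to GGG, any 5 bases and CC, the pattern of an NF-κB site, and overlapping matches run together.
Nfkbie: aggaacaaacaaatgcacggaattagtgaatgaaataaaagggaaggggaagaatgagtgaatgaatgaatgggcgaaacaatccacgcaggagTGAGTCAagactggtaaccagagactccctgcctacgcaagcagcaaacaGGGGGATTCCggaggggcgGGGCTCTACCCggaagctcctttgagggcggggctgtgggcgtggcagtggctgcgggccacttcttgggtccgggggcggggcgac
Pde4b: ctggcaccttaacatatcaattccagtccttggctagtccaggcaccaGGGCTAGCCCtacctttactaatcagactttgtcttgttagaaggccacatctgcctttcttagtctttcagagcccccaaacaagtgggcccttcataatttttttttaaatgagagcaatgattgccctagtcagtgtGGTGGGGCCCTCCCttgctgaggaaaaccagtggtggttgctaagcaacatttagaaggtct
Serpinb9b: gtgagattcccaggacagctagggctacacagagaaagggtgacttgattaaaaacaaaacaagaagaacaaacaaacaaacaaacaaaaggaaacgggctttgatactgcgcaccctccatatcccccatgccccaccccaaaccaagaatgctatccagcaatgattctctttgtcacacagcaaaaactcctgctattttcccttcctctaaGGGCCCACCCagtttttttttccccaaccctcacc

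The same rule applied to the other groups gave fewer bins. It found 1419 bins only with PAM3 (1.23%), 381 only with 25HC (0.331%) and 1306 only in untreated cells (1.13%). That order changed when a group was reduced to 1 library. Without PAM3 of mouse A, 3874 bins were found only after 25HC then PAM3 and 7741 only with PAM3. Without untreated cells of mouse A or B, 3777 and 3689 were found only after 25HC then PAM3, against 4429 and 5292 only in untreated cells. Without PAM3 of mouse B the members numbered 5611, and without 25HC then PAM3 of mouse A or B 8996 and 7118. Of the bins called in mouse A after 25HC then PAM3 and in none of the other 6 libraries, 49.9% were also called in mouse B, and 39.5% the other way round. The same shares were 41.8% and 18.3% for PAM3, 16.9% and 12.5% for 25HC, and 24.7% and 29.5% for untreated cells. The 2 mice thus shared a larger part of their group-only bins after 25HC then PAM3 than in any other group, by this count and with no test.

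Within member bins, the median cover was 806 bp in mouse A and 830 bp in mouse B after 25HC then PAM3, against 0 bp in each of the other 6 libraries. Peaks covered the whole bin in 1104 members in mouse A and in 1169 in mouse B. Cover was higher in mouse A for 1291 members, higher in mouse B for 1451 and equal for 813. Some peak cover was present in 28.2% and 41.4% of members in the PAM3 libraries of mice A and B, in 23.2% and 23.9% in the 25HC libraries, and in 23.1% and 21.7% in the untreated libraries. PAM3 of mouse B, the library with the most peaks, therefore came closest to the members.

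Not all members were empty elsewhere. No other library had any peak base in 1474 members (41.5%). Cover was present with PAM3 and absent without it in 713 members, and absent with PAM3 but present without it in 380. Close to the threshold, 1026 members had under 600 bp in the lower of their 2 libraries and 774 had 400 bp or more in one of the other 6. Just outside it, 3215 bins were called in both 25HC then PAM3 libraries and in exactly 1 other library. That library was PAM3 of mouse B for 2056 of them and PAM3 of mouse A for 319.

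The peaks behind the members were close in strength to all peaks of their libraries. Their median enrichment, the authors' fold ratio over local background, was 1.72 in mouse A and 1.58 in mouse B, against 1.70 and 1.56 for all peaks of the same libraries. Their median −log10 q was 5.12 and 6.23, against 5.43 and 6.00 for all peaks. Their median length was 1581.5 and 1704.5 bp, against 1156 and 1186 bp for all peaks, but the rule asks for 500 bp of cover in a bin and so favours long peaks.

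Members lay in 3119 runs, of which 2717 were single bins, 371 had 2 bins, 28 had 3 and 3 had 4. No bin called in another library touched 1538 runs (49.3%), such a bin touched 1 side of 1428 runs (45.8%), and both sides of 153 (4.91%). Thus about as many runs widened a region acetylated elsewhere as stood alone. Farther out, 538 runs (17.2%) lay 10 kb or more from any bin called in the other 6 libraries.

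**Figure D1:**
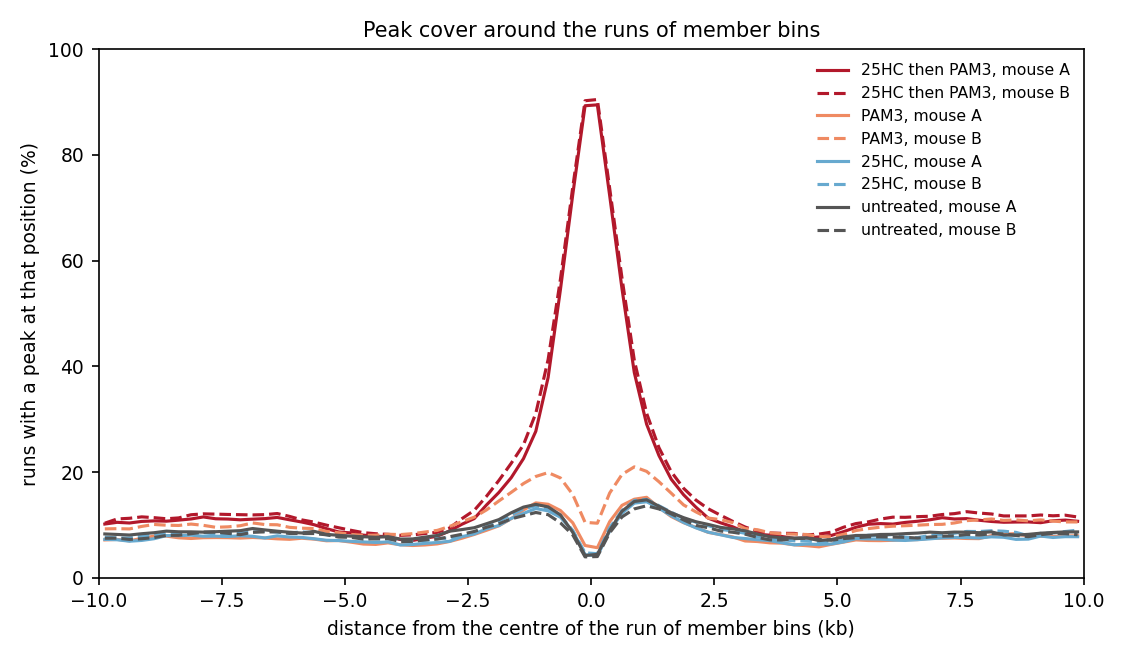
Share of the 3119 runs with a peak (%, vertical axis) by distance from the run's centre (kb, horizontal axis), 1 line per library, solid for mouse A and dashed for mouse B. Both 25HC then PAM3 lines peak near 90% by the choice of the bins; beside the centre PAM3 of mouse B lies above the other 5 libraries, at 20.1% against 13.6% to 15.2% at 1.125 kb.

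Cover beside the runs was not itself part of the rule and was compared between the other groups. Peaks cross bin borders, so it is not independent of the low cover that the rule asks of those groups inside the runs. Over 5 kb on either side, with member bins left out, peaks covered 1372 and 1498 bp per run in the 25HC then PAM3 libraries of mice A and B, as a description. They covered 871 and 1174 bp in the PAM3 libraries. They covered 869 and 932 bp in the 25HC libraries, and 967 and 905 bp in the untreated libraries. The PAM3 mean was 1023 ± 214 bp (SD, n = 2) and the mean of the 4 libraries without PAM3 was 918 ± 41.4 bp (SD, n = 4). The difference of 104 bp was within the spread of the PAM3 pair (two-sided exact permutation test, p = 0.533, where the smallest p possible is 0.133). Its sign rests on PAM3 of mouse B, since PAM3 of mouse A lay 46.9 bp below the mean of the 4 libraries without PAM3.

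Few member bins lay at promoters. Within 1 kb of either end of a gene lay 7.26% of them, inside a gene body farther from its ends 48.6%, and outside genes 44.2%. Among all called bins these shares were 19.7%, 49.2% and 31.1%, and among bins called in all 8 libraries 42.4%, 32.3% and 25.2%. Bins found only with PAM3 had 8.03%, 59.5% and 32.5%, and bins found only in untreated cells 12.4%, 51.3% and 36.3%. Bins found only with 25HC had 10.2%, 53.3% and 36.5%. Bins called in all 4 PAM3 libraries and in none without PAM3 had 10.3%, 48.5% and 41.2%, so placement outside genes was not particular to the members. Within 1 kb of an annotated start lay 5.15% of members, against 16.0% of all called bins, on the chromosomes with annotated starts. The median run was 34660 bp from the nearest start of a protein-coding gene.

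**Figure D2:**
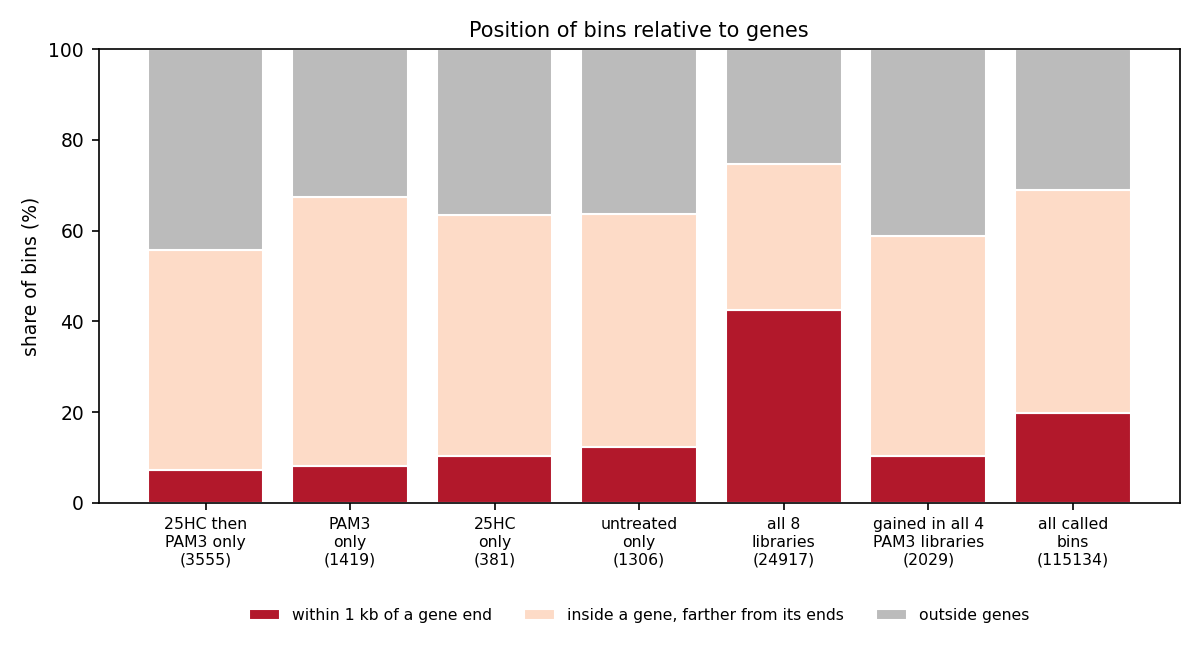
Stacked shares of bins (%, vertical axis) within 1 kb of a gene end, inside a gene or outside genes, for each set of bins (horizontal axis, number of bins in brackets). Bins found only after 25HC then PAM3 have the largest grey part of the sets shown, 44.2% outside genes, followed by bins gained in all 4 PAM3 libraries, 41.2%.

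Some members lay near bins that all PAM3 libraries share. Of the member bins, 10.4% were within 10 kb of the 2029 bins called in all 4 PAM3 libraries and in none without PAM3. The share was 11.7% for bins found only with PAM3, 2.62% for those found only with 25HC, 3.29% for those found only in untreated cells and 6.37% for all called bins. Across chromosomes, members made up between 2.28% (chromosome 19) and 3.91% (chromosome 13) of the called bins.

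Of 20661 protein-coding genes, 1435 (6.95%) had a member bin in the body or within 1 kb of it and are called host genes. Of these, 1337 had a member inside the body. Host genes were long, with a median body of 67.7 kb, against 17.5 kb for all genes. Gene lists are set beside that share as a description, with no test. The highest shares were in Toll-like receptor and NF-κB signalling with 10 of 43 genes (23.3%), in cytokines and chemokines with 9 of 41 (22.0%), and in inflammatory effectors with 9 of 41 (22.0%). These lists hold short genes, with median bodies of 15.9, 5.60 and 11.5 kb. NRF2 and antioxidant genes had 4 of 19 (21.1%), antigen presentation 4 of 21, lipid uptake and storage 5 of 27 (18.5%), and LXR targets and oxysterol handling 5 of 32 (15.6%). Glycolysis and hypoxia had 3 of 22 (13.6%) and interferon-stimulated genes 5 of 38 (13.2%). Counted by bins inside gene bodies, members were 2.49% of the called bins over all protein-coding genes, and 9.59% of the genes with a called bin held one. Lipid uptake and storage, with 5 of 255 called bins (1.96%), and LXR targets and oxysterol handling, with 6 of 302 (1.99%), lay under that share of bins. Glycolysis and hypoxia were near it, at 4 of 142 (2.82%), and the signalling list had 12 of 331 (3.63%), cytokines and chemokines 7 of 120 (5.83%), effectors 10 of 181 (5.52%) and NRF2 and antioxidant genes 8 of 88 (9.09%).

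Other lists were near or under the share of all genes. Macrophage identity had 2 of 28 (7.14%), dendritic cell markers 1 of 14 (7.14%), alternative activation 1 of 18 (5.56%), fibroblast and endothelial markers 1 of 19 (5.26%), genes silent in macrophages 1 of 22 (4.55%), and AP-1 and stress factors 1 of 33 (3.03%). Counted by called bins inside gene bodies, genes silent in macrophages had 1 of 17 (5.88%). That share is as high as the 5.83% of cytokines and chemokines, but rests on 1 bin. Cholesterol synthesis and SREBP targets (32 genes), neutrophil markers (16), lymphocyte markers (23) and housekeeping genes (16) had 0. In all, 60 listed genes had 75 runs, and 16 of those runs, each at a different gene, had 0 bp in all 6 other libraries. Cover does not give the strength of a peak, and some of the 75 runs rest on peaks barely above local background in a mouse. Not every such run is marked as weak below.

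**Figure D3:**
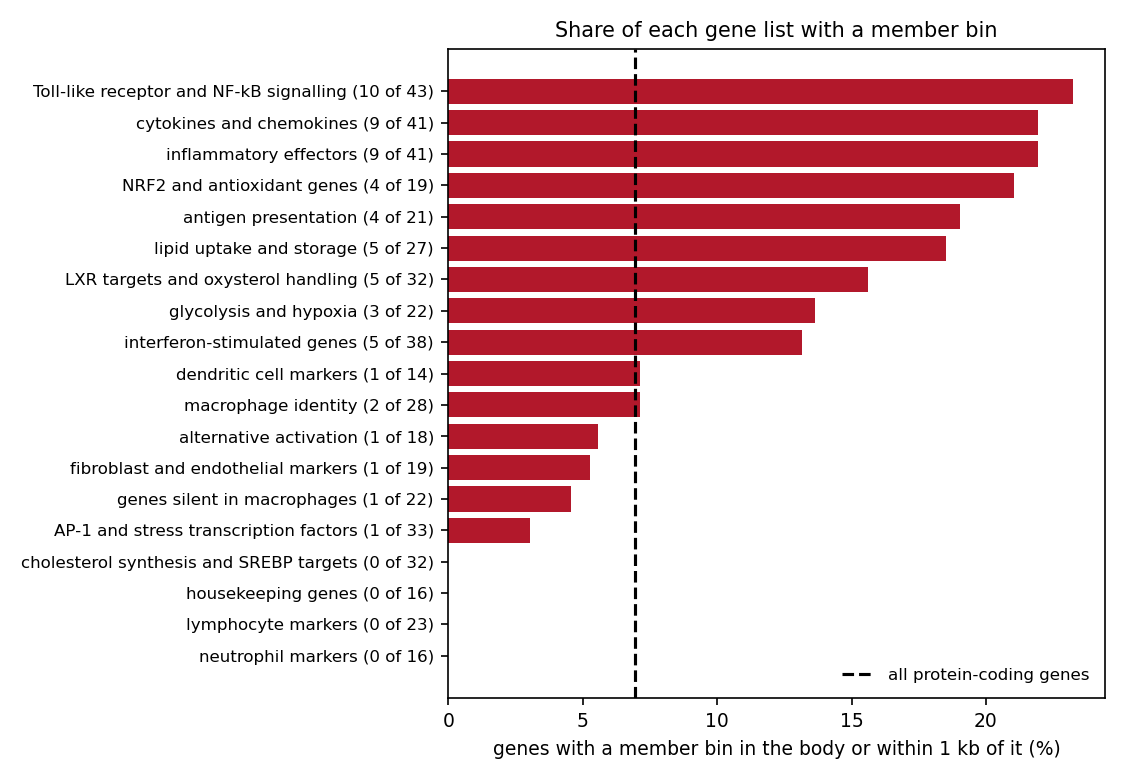
Share of genes with a member bin in the body or within 1 kb of it (%, horizontal axis) for 19 gene lists, with the number of such genes of those on chromosomes 1 to 19 in brackets. Signalling, cytokine and effector lists stand above 20%, and the dashed line marks all protein-coding genes at 6.95%.

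Receptor and signalling genes stand first in the pathway. A bin in Tlr4, the endotoxin receptor, was covered over 1000 bp in both 25HC then PAM3 libraries, against 0 and 377 bp in PAM3, 403 and 356 bp in 25HC, and 0 bp in both untreated libraries. Over its body and 5 kb beyond each end, Tlr4 had 8609 and 10651 bp of peaks in 25HC then PAM3, 2264 and 2943 bp in PAM3, 6610 and 6822 bp in 25HC, and 6110 and 6283 bp in untreated cells. PAM3 alone was the lowest of the groups over this gene and 25HC then PAM3 the highest, with no overlap. These sums, like those of gene windows below, include the member bins unless said otherwise. Ikbkb, the kinase that marks IκB for destruction, held bins filled in both 25HC then PAM3 libraries at 22693001 and 22699001 on chromosome 8. Elsewhere, 242 bp of the first were covered in PAM3 of mouse B and 437 bp of the second in untreated cells of mouse A, and none in other libraries. Traf1, an adaptor of TNF receptors, had 1558 and 1584 bp of a run of 2 bins covered after 25HC then PAM3, against 633 bp in PAM3 of mouse A and 0 bp in the other 5 libraries.

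The NF-κB genes themselves held members. Nfkb1, which encodes p105 and p50, had a run of 2 bins at chr3:135671001-135673000 covered in full in both 25HC then PAM3 libraries, against 307 and 397 bp in PAM3 and 0 bp in 25HC and untreated cells. Its whole window moved little, with 16086 and 20845 bp in 25HC then PAM3, 15819 and 17694 bp in PAM3, 14428 and 16855 bp in 25HC and 16083 and 17037 bp in untreated cells. Rel, which encodes the c-Rel subunit, had a bin covered in full in both, against 189 and 209 bp in PAM3 and 0 bp in the 4 libraries without PAM3. The bin beside Nfkbia, which encodes IκB-α, had 799 and 666 bp after 25HC then PAM3 and 0 bp in the other 6.

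Nfkbie was the one member of that list with its promoter in a member bin. The window from 250 bases before to 50 after its start was covered over all 300 bases in both 25HC then PAM3 libraries, against 54 and 27 bases in PAM3, 35 and 31 in 25HC, and 41 and 26 in untreated cells. Over the whole bin, cover was 1000 and 940 bp, against 277 to 305 bp in the others, so a peak present in all libraries reached farther over the printed sequence. The brakes Socs3, Dusp4 and Dusp16, which turn down cytokine and MAP kinase signals, had 779 and 719 bp, 808 and 795 bp, and 520 and 616 bp after 25HC then PAM3. In the other libraries their highest values were 55, 211 and 492 bp, the last in PAM3 of mouse B.

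Among cytokines, Il6 carried a run of 2 bins. These bins at chr5:30014001-30016000, inside the gene, were covered over 2000 bp in both 25HC then PAM3 libraries, against 0 and 372 bp in PAM3 and 0 bp in the 4 libraries without PAM3. The Il6 window had 4166 and 4902 bp of peaks in 25HC then PAM3, 1283 and 2696 bp in PAM3, 1369 and 1324 bp in 25HC, and 1376 and 1130 bp in untreated cells. Of each 25HC then PAM3 sum, 2000 bp are the member bins, which the rule chose. With member bins left out, the Il6 window did not pass the limma test of PAM3 against untreated cells, with a log2 difference of 0.41 (SE 0.18, adjusted p = 0.332). Il15, which sustains natural killer cells, had 770 and 887 bp in a bin that was at 0 in all other libraries.

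Several chemokine genes held members within 1 kb of the gene. The bin before Cxcl2, a neutrophil attractant, had 835 and 833 bp after 25HC then PAM3, against at most 42 bp elsewhere, and its centre was 1398.5 bp upstream of the start. Beside Ccl2, a monocyte attractant, a run of 2 bins had 1900 and 2000 bp, against 207 to 587 bp in the others. Cxcl16, a membrane-bound ligand of Cxcr6, had 892 and 1000 bp, against 242 to 303 bp. Il1rn, the natural antagonist of the interleukin-1 receptor, had 897 and 981 bp, against 0 to 83 bp. Il18 and Il27 were weaker cases, with 728 and 907 bp against up to 458 bp for Il18, and 727 and 799 bp against up to 413 bp for Il27.

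Effector genes followed. Ptges, the prostaglandin E synthase, had 3 member bins, and that at 30902001 on chromosome 2 had 956 and 904 bp, against 0 bp in all 6 other libraries. Its window had 11454 and 10021 bp in 25HC then PAM3, 7261 and 3926 bp in PAM3, 2789 and 2975 bp in 25HC, and 881 and 3290 bp in untreated cells. With the 3 member bins included, the order of the groups was 25HC then PAM3, PAM3, and then the 2 groups without PAM3, which overlapped. The bin at Ptgs2, which encodes the inducible cyclooxygenase upstream of Ptges, was full in both 25HC then PAM3 libraries, against 464 and 486 bp in PAM3, 0 bp in 25HC, and 0 and 463 bp in untreated cells. Nos2, the inducible nitric oxide synthase, had a bin at 78950001 on chromosome 11 with 1000 and 961 bp, against 0 bp in the other 6, and a second with 955 and 665 bp against 390 and 375 bp in PAM3 and 0 bp without PAM3. Fold ratios at the bin at 78950001 were 1.08 in mouse A and 2.88 in mouse B.

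The remaining effectors each had 1 or 2 bins. Slpi, a secreted protease inhibitor that restrains inflammation, had a bin beside it filled in both 25HC then PAM3 libraries and at 0 elsewhere. The peaks behind that bin were weak in mouse A, with a fold ratio of 1.01 and −log10 q of 1.03, against 1.99 and 6.51 in mouse B. Tnfaip6, a hyaluronan-binding protein, had 771 and 733 bp, against up to 442 bp in PAM3 of mouse B. Serpinb2, a plasminogen activator inhibitor, had 674 and 708 bp, against 257 bp in 25HC of mouse A and 0 bp in the other 5. F10, coagulation factor X, was full in both, against 190 to 196 bp in PAM3 and up to 122 bp without it. Cd14, the endotoxin co-receptor, and Pdpn, podoplanin, had bins on which other libraries came as close as 497 and 485 bp.

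Interferon and antigen presentation genes came next. Trim25, a ubiquitin ligase of RNA sensing, had 812 and 859 bp in a bin after 25HC then PAM3, against 0 bp in the other 6 libraries. Oas3, an antiviral synthetase, and Parp14, a mono-ADP-ribosyltransferase, were full in both 25HC then PAM3 libraries, with at most 264 and 471 bp elsewhere, while Gbp3 had 502 and 537 bp against up to 214 bp. The Oas3 peaks were weak, with fold ratios of 1.40 in mouse A and 1.04 in mouse B. Ciita, the master activator of class II genes, had a run of 2 bins with 1744 and 1732 bp, against 0 bp in the other 6. The whole Ciita window was above PAM3, overlapped 25HC and was below untreated cells, with 5260 and 7053 bp in 25HC then PAM3, 2433 and 2097 bp in PAM3, 5548 and 9493 bp in 25HC, and 11048 and 9411 bp in untreated cells. Nlrc5, the activator of class I genes, was full in both, against at most 286 bp. Cd1d1, which presents lipids, had 2 bins, while H2-Ab1, a class II chain, only just passed, with 528 and 524 bp against up to 470 bp.

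Sterol and lipid genes had few members. None was at a gene of cholesterol synthesis. Abca1, the cholesterol exporter that LXR induces, had 523 and 550 bp in 1 bin, against 0 and 26 bp in PAM3 and 0 bp without it. Its window overlapped among the groups, with 15164 and 16598 bp in 25HC then PAM3, 12462 and 15353 bp in PAM3, 9690 and 13413 bp in 25HC, and 15463 and 12705 bp in untreated cells. Osbpl3, an oxysterol-binding-protein relative, had 3 members, of which that at 50392001 on chromosome 6 had 1000 and 529 bp and 0 bp elsewhere. Osbp, an oxysterol-binding protein, had 573 and 593 bp against 393 bp in PAM3 of mouse B and 0 bp in the other 5. Soat1, which esterifies cholesterol for storage, had 558 and 985 bp against 419 and 408 bp in PAM3 and 0 bp without it. Smpdl3a, a phosphodiesterase, had 505 and 538 bp and was at 0 in the other 6. Its peak was weak in mouse B, with a fold ratio of 1.11 and −log10 q of 0.664.

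Ppard, a nuclear receptor for fatty acids, had 1000 and 779 bp, against 227 bp in untreated cells of mouse B and 0 bp in the other 5. Cd36, a scavenger receptor, was full in both 25HC then PAM3 libraries, against 130 and 262 bp in PAM3 and up to 176 bp without it. Acsl3 and Ppargc1b, which act in fatty acid use, had 789 and 753 bp and 568 and 591 bp, with up to 294 and 322 bp elsewhere. Lgals3, which encodes galectin-3, was a threshold case, with 504 and 534 bp against 414 to 487 bp in the other 6 libraries.

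Metabolic and antioxidant genes included Hk1 and Pkm, which open and close glycolysis. Hk1 had a run of 2 bins with 1206 and 1341 bp and Pkm a full bin in both, each at 0 in the other 6 libraries. Hk2, the inducible hexokinase, had 597 and 620 bp, against up to 297 bp in PAM3 of mouse B. Slc7a11, the cystine importer, had 3 members, 2 of them full in both 25HC then PAM3 libraries, with at most 355 bp in any other library. Gsr, glutathione reductase, had 2000 bp in both over 2 bins, against 0 to 229 bp, and Cat, catalase, 1652 and 1856 bp, against 338 bp in PAM3 of mouse A and 0 bp in the other 5. The Cat peaks were weak, with fold ratios of 1.03 in mouse A and 1.19 in mouse B. Prdx1, a peroxiredoxin, had 693 and 687 bp and 0 bp elsewhere.

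Identity and lineage genes held few. Runx1, a transcription factor of blood cells, had 3 bins, and Mitf, a factor of lysosomal genes, had 1 that was full in both 25HC then PAM3 libraries, against 441 and 442 bp in untreated cells and 0 bp in the other 4. Pdcd1lg2, which encodes the checkpoint ligand PD-L2, had 909 and 795 bp, against up to 209 bp. Ccr7, the lymph-node homing receptor, had 1000 and 820 bp, against 381 bp in PAM3 of mouse B and 0 bp in the other 5. Pdgfrb, a fibroblast gene, and Gfap, an astrocyte gene, had 679 and 925 bp and 539 and 702 bp, at 0 elsewhere, so member bins also occur at genes that macrophages are not known for.

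Most members were spread out, and a small part of them clustered at a few loci. Of 11714 windows of 100 kb with a called bin, 2388 had a member and 35 had 5 or more, holding 211 of the 3555 members. This count was not made for the other sets of bins. The most in a window were 11, in a window at Tes with 17 called bins and in one beside Inhba with 29. The product of Inhba forms activin A, a cytokine of activated macrophages. Over the 267 kb around that gene, 37 and 38 bins were called in 25HC then PAM3, 3 and 5 in PAM3, 3 and 2 in 25HC, and 4 and 2 in untreated cells. Peaks covered 38481 and 37654 bp there in 25HC then PAM3, 2675 and 5013 bp in PAM3, 3378 and 3261 bp in 25HC, and 4006 and 3178 bp in untreated cells. In this window and those below, called bins and bp include the member bins, 20 around Inhba. By the rule these are called in 25HC then PAM3 only, so part of each contrast was set by the choice of bins. The other groups shared the peaks at the gene and about 154 kb before it, PAM3 of mouse B had 2 short ones more, and 12 of the 13 runs of members filled the space between or widened the far peak.

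All 12 runs outside the Inhba body had 0 bp in the 6 other libraries. That at chr13:15852001-15855000 was covered over all 3000 bp in both 25HC then PAM3 libraries, and that nearest the gene, at chr13:15992001-15993000, over 758 and 882 bp. The authors' fold ratios of the peaks behind these runs were 1.17 to 2.18 in mouse A and 1.13 to 2.71 in mouse B, which is weak enrichment at many adjacent places. The bin inside Inhba had 606 and 747 bp, against 0 to 150 bp.

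The window around Mir155, which holds 10 members, differed in that PAM3 alone had part of the gain. It had 29 called bins in each 25HC then PAM3 library, 13 and 18 in PAM3, 3 and 3 in 25HC, and 3 and 2 in untreated cells. In bp, these were 29161 and 28916 in 25HC then PAM3, 12155 and 18807 in PAM3, 3735 and 3042 in 25HC, and 3621 and 2261 in untreated cells. The nearest run, 7140 bp before the hairpin whose mature strand is printed above, had 2000 bp in both 25HC then PAM3 libraries, against 0 and 174 bp in PAM3 and 0 bp without it. Beside Mir146, a bin 2397 bp from the hairpin had 693 and 554 bp, against 0 and 10 bp in PAM3 and 0 bp without it.

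**Figure D4:**
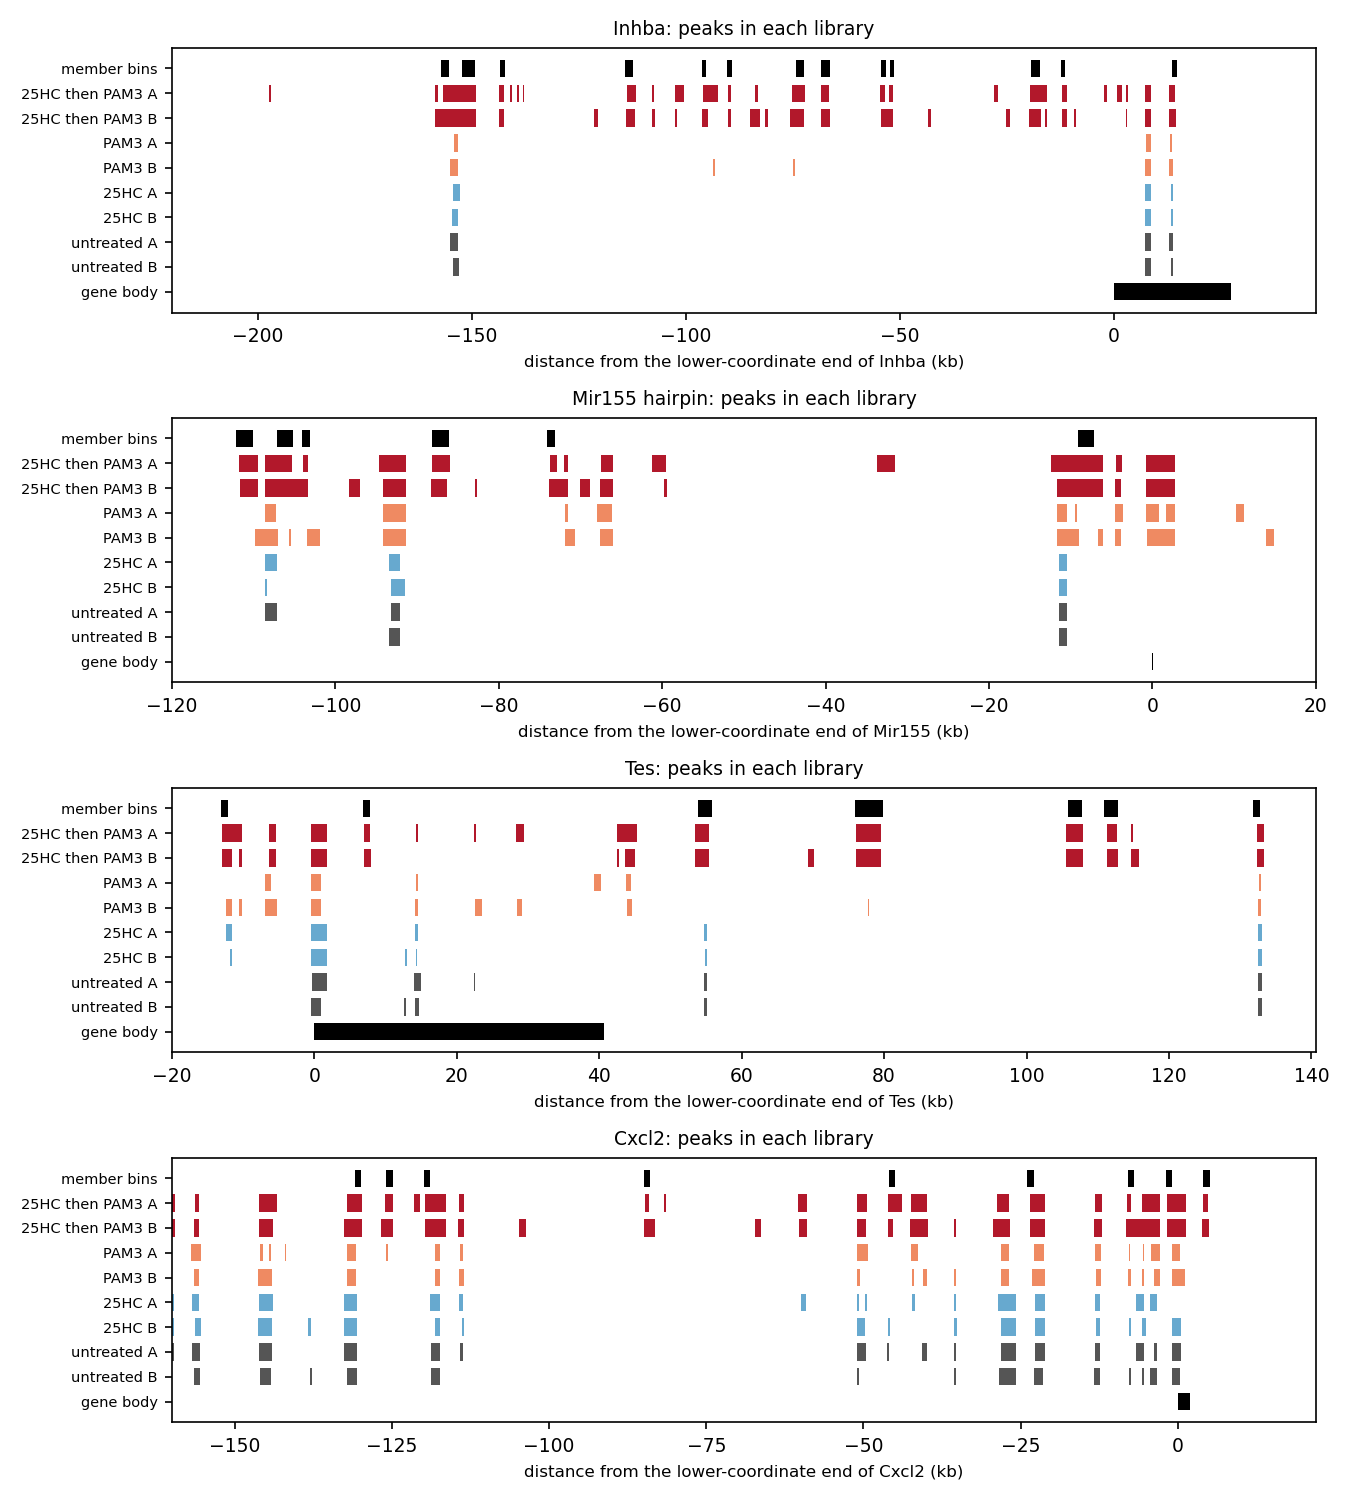
Peaks (bars) in each library around Inhba, the Mir155 hairpin, Tes and Cxcl2, by distance from the lower-coordinate end of the gene or hairpin (kb, horizontal axis), with member bins in the top row and the gene body in the bottom row of each panel. The 25HC then PAM3 rows carry peaks before Inhba that the other rows lack, while at Mir155 the PAM3 rows hold part of them.

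Tes, which encodes the focal adhesion protein testin, had 13 members in a 161 kb window, 4 of them in 1 of the 3 runs of 4 bins, at chr6:17141001-17145000. That run had 3536 and 3513 bp after 25HC then PAM3, against 0 and 253 bp in PAM3 and 0 bp without it. The window had 21 called bins in each 25HC then PAM3 library, 4 and 6 in PAM3, 2 and 2 in 25HC, and 3 and 1 in untreated cells. The 13 members are among the 21. Nt5e, the ectonucleotidase CD73 that makes adenosine, had 9 members before it. Its window had 18 called bins in each 25HC then PAM3 library, 3 and 6 in PAM3, 4 and 7 in 25HC, and 4 and 5 in untreated cells. The 9 members are among the 18.

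The chemokine cluster that ends at Cxcl2 was acetylated in all groups and broader after 25HC then PAM3. Its 182 kb window, which also holds Cxcl5, Ppbp, Pf4, Cxcl3 and Cxcl15, had 34 and 37 called bins in 25HC then PAM3, 13 and 13 in PAM3, 16 and 14 in 25HC, and 17 and 14 in untreated cells. PAM3 alone was thus no higher there than untreated cells by this count. Over Cxcl2 and 5 kb beyond each end it was higher, with 2744 and 2972 bp of peaks. Untreated cells had 1826 and 2456 bp there, 25HC 1076 and 1353 bp, and 25HC then PAM3 6074 and 6446 bp. The bin beyond Cxcl2 at chr5:90908001-90909000 had 734 and 857 bp, against 0 bp in the other 6, with fold ratios of 4.12 and 3.85.

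At Mmp12, the macrophage elastase, PAM3 alone was the lowest group. The 136 kb before and over the gene, which also include Mmp13, a collagenase, had 14 and 16 called bins in 25HC then PAM3, 0 and 3 in PAM3, 5 and 5 in 25HC, and 10 and 6 in untreated cells. The run at chr9:7330001-7333000 had 2783 and 2810 bp and that at chr9:7291001-7293000, nearest to Mmp13, had 1209 and 1534 bp, each against 0 bp in the other 6 libraries. Around Tlr4, 15 and 16 bins were called in 25HC then PAM3, 4 and 7 in PAM3, 9 and 10 in 25HC, and 12 and 10 in untreated cells, the same order as at Mmp12 for the highest and lowest groups. Around Nfkb1, in contrast, 16 and 20 bins were called in 25HC then PAM3, 16 and 18 in PAM3, 15 and 17 in 25HC, and 18 and 19 in untreated cells, with overlap throughout. These windows were chosen for their members after the values were seen, and their counts include those members.

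**Figure D5:**
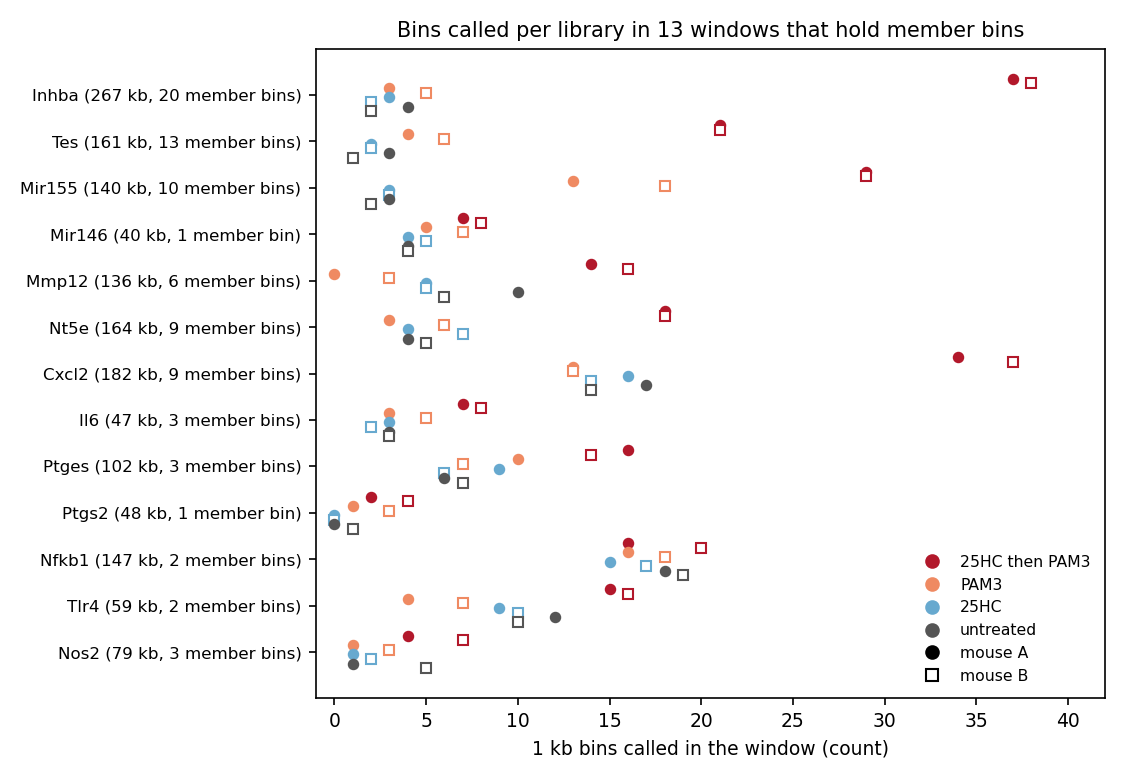
Bins called (count, horizontal axis) in each library in 13 windows around genes or microRNA hairpins that hold member bins, filled circles for mouse A and open squares for mouse B. The 25HC then PAM3 points stand apart at Inhba, Tes, Mir155, Nt5e and Cxcl2 and overlap those of other groups at Nfkb1. Member bins are counted, so part of this follows from the rule.

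Long runs were found in other genes too. Ly75, which encodes the endocytic receptor DEC-205, held 4 bins at chr2:60367001-60371000 with 4000 and 3835 bp, against 0 bp in the other 6 libraries. The run of 4 bins before Nt5e had 3850 and 3598 bp, against 471 and 380 bp in PAM3 and up to 277 bp without it. Runs of 3 bins lay in Fuca1 and Scarb2, which encode a fucosidase and a membrane protein of the lysosome. They had 2360 and 2624 bp for Fuca1, against 0 bp elsewhere, and 2937 and 2570 bp for Scarb2, against 282 and 279 bp in PAM3 and 0 bp without it. Tet1, an enzyme that oxidises methylated cytosine, had 3000 and 2840 bp, against up to 374 bp, and the ubiquitin ligase gene Hecw2 had 2200 and 3000 bp, against up to 473 bp. Mapre2, a microtubule end-binding protein, held 2624 and 2470 bp, against 216 bp in PAM3 of mouse A and 0 bp in the other 5. Near Siglecg, a sialic-acid-binding lectin, a run had 3000 and 2972 bp, against up to 809 bp, and near Pik3ap1, an adaptor between Toll-like receptors and PI3 kinase, 2806 and 2615 bp, against up to 214 bp.

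The statistically strongest peaks behind members were elsewhere, and their −log10 q is the authors' mean over the peak. A bin 23428 bp from Rab10, a GTPase of vesicle traffic, had 605 and 666 bp, against 0 bp in the other 6, with −log10 q of 730 and 797. It touched a bin called in other libraries on 1 side, as did both runs in Scaf8, an RNA polymerase II-binding protein, with −log10 q of 242 and 272 and of 134 and 135. The runs near Mmp13 and Mmp12 came next, with 123 and 87.9 and with 95.4 and 66.0. Single bins in Nav2, a neuron navigator gene, and nearest to Id2, an inhibitor of helix-loop-helix factors, had 81.5 and 73.3 and 82.9 and 63.3. The bin nearest to Id2 lay 341909 bp from that gene. It also had 421 and 317 bp of peaks in 25HC and 411 and 380 bp in untreated cells. Bins nearest to Saraf, Snd1 and Trib1 had 60.8 and 129, 57.7 and 85.6, and 53.6 and 72.7. They lay 226154, 54839 and 141902 bp from those genes, so nearness names them only, as it does the bin nearest to Id2. Fold ratios did not follow the order by −log10 q. In mice A and B they were 5.46 and 4.60 near Rab10 and 5.67 and 5.73 nearest to Saraf. At the second run in Scaf8 they were 2.43 and 2.11. Why −log10 q was so high near Rab10 and in Scaf8 was not tested.

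Genes with the most members were long. Creb5, a transcription factor of the CREB family, had 13 in 413 kb, or 16.2% of the bins called there. Slx4ip had 10 in 190 kb (20.8%), Thada 9 in 276 kb (17.3%) and Clec16a, a regulator of mitophagy beside Ciita, 8 in 200 kb (21.1%). Lpp, a focal adhesion gene, had 7, but these were 3.68% of its 190 called bins, close to the 3.09% of all bins. Agap1, Apbb2, Hecw2, Magi2 and Mctp1 had 6 each, which were 12.0% to 16.7% of their called bins.

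MicroRNA hairpins were not members themselves. Of 919 hairpins on chromosomes 1 to 19, 38 (4.13%) lay within 10 kb of a member run and 0 overlapped one, while 612 (66.6%) lay within 10 kb of any called bin. Beside Mir155 and Mir146, a bin 5446 bp from Mir34a, a target of p53, was full in both 25HC then PAM3 libraries and at 0 elsewhere. A bin 7843 bp from Mir21a had 742 and 725 bp, against 420 bp in PAM3 of mouse B, 369 bp in 25HC of mouse B and 0 bp in the other 4.

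Promoters in member bins held fewer CpG than those in bins called in all 8 libraries and about as many as promoters in general. Of the annotated starts, 51 had their 300-base window in member bins, from 46 genes, of which 27 are protein-coding. The median window, 1 per gene, held 7.5 CpG, against 23 in windows within bins called in all 8 libraries and 7 in all 27025 windows. Of the protein-coding genes, 5 had a window covered in full in both 25HC then PAM3 libraries and at 0 in the other 6. They were Pde4b, Serpinb9b, Prrx1 and Foxc1, which encode developmental transcription factors, and Plekha1, a phosphoinositide-binding adaptor. The printed Pde4b and Serpinb9b promoters hold the NF-κB pattern but not TGAGTCA, which of the 3 printed is in Nfkbie only. Of the promoters not printed, over the same 250 bases, Foxc1 held the NF-κB pattern only, and Prrx1 and Plekha1 held neither.

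Motifs were searched on both strands as exact letters. The AP-1 site TGAGTCA was in 7 of the 46 windows (15.2%), against 5.17% of all windows and 4.07% of those in any called bin. The NF-κB pattern was in 27 (58.7%), against 50.4% of all windows, but 67.7% of those in any called bin and 70.3% of those in bins called in all 8 libraries. The E-box CACGTG was in 7 (15.2%), against 7.24% of all windows and 10.4% of those in any called bin. TTGCNNAA, a C/EBP pattern, was in 6 (13.0%), against 10.8% and 8.35%, and the interferon response core, GAAA, any 2 bases and GAAA, in 2 (4.35%), against 3.49% and 3.38%. GAGGAAG, a PU.1 core, was in 3 (6.52%), against 13.5% and 14.3%, and TGACGT, the CRE core, in 1 (2.17%), against 7.64% and 12.0%. The LXR element, AGGTCA repeated after any 4 bases, was in 0, against 0.0111% of all windows. A match describes letters and not a bound factor, and 46 windows are few.

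Whether PAM3 or 25HC alone acts on host genes was tested outside the member bins. The bp of peaks over a gene body and 5 kb beyond each end, its called length, were summed after member bins were removed and taken as log2 of the sum plus 500 bp, in the 6 libraries other than 25HC then PAM3. A gene is said to have risen or fallen at an adjusted p under 0.05 in limma. With PAM3, 25 of 1391 host genes rose and 17 fell against untreated cells, while over all 14564 genes tested 0.927% rose and 1.09% fell. The median log2 difference was 0.06 for host genes and −0.01 for all genes. These medians were 0.03 and 0.02 without PAM3 of mouse B, and 0.10 and −0.03 without PAM3 of mouse A. With only peaks of −log10 q of 5 or more they were 0.008 and −0.015. A block by mouse cannot change them, since each mouse gave 1 library to every group. No host gene passed for 25HC against untreated cells, where 0% of all genes did in limma; 78 host genes and 669 of all genes had an unadjusted p under 0.05. The 42 PAM3 calls are not firm: blocked by mouse 0 of them passed, with 2 residual degrees of freedom in place of 3 and the same median difference, and 0 passed without PAM3 of mouse B, without either 25HC library or without untreated cells of mouse A, and 3 host genes passed without untreated cells of mouse B.

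Among the genes that rose with PAM3, Gpd2, the mitochondrial glycerol-3-phosphate dehydrogenase, had 17132 and 10591 bp in 25HC then PAM3, which the test did not use, 13711 and 22555 bp in PAM3, 4138 and 3539 bp in 25HC, and 4769 and 4403 bp in untreated cells. Its log2 difference of PAM3 from untreated cells was 1.88 (SE 0.20, limma adjusted p = 0.0401; blocked by mouse, adjusted p = 0.11). Lpp rose by 0.96 (SE 0.11, limma adjusted p = 0.0401), and Smchd1, a chromatin silencer, by 1.63 (SE 0.12, limma adjusted p = 0.0300). Smchd1 had 3796 and 6504 bp in 25HC then PAM3, 8828 and 12041 bp in PAM3, and 3081 and 3149 bp in untreated cells, so the libraries outside the test lay between the pairs compared. Scfd2 rose by 1.97 and Nrg3, a neuregulin, by 2.89. Nrg3 had 3372 and 4479 bp in PAM3 and 248 and 0 bp in untreated cells.

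Tlr4 was among the genes that fell with PAM3. Outside the member bin it had 7609 and 9651 bp in 25HC then PAM3, which the test did not use, 2264 and 2566 bp in PAM3, 6207 and 6466 bp in 25HC, and 6110 and 6283 bp in untreated cells, with a log2 difference of PAM3 from untreated cells of −1.15 (SE 0.10, limma adjusted p = 0.0300; blocked by mouse, adjusted p = 0.105). PAM3 alone was thus the lowest of the 4 groups over Tlr4, with no overlap. Adtrp, a lipid hydrolase, and Psmd1, a proteasome subunit, fell by 1.85 and 1.83 on the log2 scale. Psmd1 had 6234 and 5760 bp in 25HC then PAM3, 1513 and 1554 bp in PAM3, and 6571 and 7380 bp in untreated cells. Kcnj6, a potassium channel, and Ankrd55 fell by 1.72 and 1.43, and both had more called length in 25HC then PAM3, 4099 and 4218 bp and 9939 and 12532 bp, than in PAM3, 1436 and 1402 bp and 5362 and 7912 bp. Of all 17 host genes that fell with PAM3, 10 had more called length in both 25HC then PAM3 libraries than in either PAM3 library and 0 had less in both than in either, and in the other 7 the pairs overlapped. Of the 25 that rose, 5 had more and 6 less. These are side-by-side counts with no test, since the choice of host genes used that contrast. The genes were also picked by their PAM3 values, low for those that fell, so libraries outside the fit would tend to lie above those values. The same count was not made over all genes that fell.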

How the data were processed

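Acetyl-H4 ChIP-seq peaks of 8 macrophage libraries in 4 groups of 2 mice were used. Per the submitters' processing notes, GSNAP placed the reads on GRCm38 (mm10) and MACS2 2.1.0 called broad peaks. No source used here states the control, the read filters or the thresholds. The lists, 1 per library, hold the authors' start and end of each peak. The deposited fold ratio, −log10 p, −log10 q and score are the authors' values per peak and were used to describe or filter peaks, the −log10 p and the score not at all. The files hold no counts, so depth is unknown and no interval needing it is given; a bin is absent only as far as no peak was called.

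Cover per 1 kb bin, runs and distances were computed in Python 3.11.15 with numpy 2.4.6 and pandas 2.3.3, and gene bodies, promoters and microRNAs came from RefSeq tables on GRCm38.p6, whose coordinates share the build of the peaks. Promoters of chromosome 18 were not used here. For host genes, log2 called length plus 500 bp, with each library's median subtracted, was tested with limma 3.58.1 in R 4.3.3 over 3 groups (3 residual degrees of freedom) for genes with a mean of at least 500 bp, and p-values were Benjamini-Hochberg adjusted over all of them. The added 500 bp makes log2 differences of sparsely covered genes too small. The steps were checked on simulated data.

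Mouse A and mouse B gave a library to each group, per the labels, which pairs them; after centring on each group, their values correlated by −0.0004 to −0.013 across groups. The blocked fit is an alternative. The members, gene lists and tests were chosen with earlier results of these data known, and the windows, microRNAs and promoters after seeing values. Genes were named if they held or lay nearest to the 10 longest runs or the 10 strongest by −log10 q, had the most member bins, were listed with a member, or were host genes past the threshold, at most 5 per direction; predicted, olfactory and vomeronasal genes were left out. A listed gene that the rule picked is not reported here.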

Additional observations from a re-analysis of the deposited data

Results flagged for a closer look

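Chromosome X was outside the bins described. The same rule applied to it gave 62 bins found only after 25HC then PAM3, of 2600 called there (2.38%), against 45 found only with PAM3, 6 only with 25HC and 27 only in untreated cells. These are counts of called bins, shown because this chromosome entered no comparison above, and no test was made of them.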

How the results depend on the processing

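The 3555 member bins became 1915 with cover of the whole 1000 bp, 1474 with 0 bp required in the other 6 libraries, 1896 with all lists limited to −log10 q of 5 or more, 1142 with that limit in the 25HC then PAM3 lists only, and, added after the data had been seen, 696 when only bins more than 10 kb from bins of the other 6 were kept. Without 1 library they numbered 3689 to 8996, the highest without mouse A of the group itself, and 5611 without PAM3 of mouse B. 25HC then PAM3 had the most group-only bins in each setting except without PAM3 of mouse A, where PAM3 had 7741 and 25HC then PAM3 3874, and without untreated cells of mouse A or B, where untreated cells had 4429 and 5292. With −log10 q of 5 or more its lead over untreated cells narrowed, to 1896 against 1497. Of 79 named genes with a member bin, 35 kept one with 0 bp in the other 6, 41 with −log10 q of 5 or more, 55 with bins moved by 500 bp and 77 with equal peak numbers. The shares near a gene end, inside a gene and outside genes were 20.1%, 41.0% and 38.8% with 5 kb in place of 1 kb, and 10.9% near an end and 41.2% outside genes with −log10 q of 5 or more. The flank difference kept its sign with 2 and 10 kb, but PAM3 of mouse A alone differed from the mean without PAM3 by 1.99 bp with 2 kb, −46.9 bp with 5 kb and −102 bp with 10 kb. Host gene calls for PAM3 numbered 0 with the mouse as a replicate block, 0 with −log10 q of 5 or more, 8 without median subtraction (all genes then shifted by −0.05) and 76 with all 8 libraries. Without 1 library they numbered 0 to 48, and the 48, without PAM3 of mouse A, share 17 genes with the 42. Residual degrees of freedom fall when a library is left out or the block is added. For 25HC host calls were 0 under every alternative run. No read depth was available to limit the bins.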
